A study of Mus musculus with 14 samples.

Results

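Genes that mark the macrophages living beside blood vessels in healthy tissue were followed through the epididymal fat of mice on a control diet or a Western diet (WD). The 10 members are Cd163, Lyve1, Mrc1, Folr2, Timd4, Cbr2, Clec10a, Mgl2, F13a1 and Adgre1, picked by their symbols out of the 23282 genes of the count table, with earlier results of these data known. All 10 were found, each once.

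Resident macrophages settle in a tissue early in life, keep up their numbers there and clear dying cells, debris and plasma proteins. Those lying along vessels in fat are known for scavenger and lectin receptors on their surface, such as those encoded by Cd163, Lyve1 and Mrc1, and for a high uptake of blood-borne material. When fat expands, monocytes enter from the blood and become macrophages that gather around dying adipocytes. These lipid-associated macrophages carry genes such as Trem2 and Itgax and little of the perivascular markers. Adgre1, which encodes the F4/80 antigen, belongs to most mouse tissue macrophages of both kinds.

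The samples were epididymal white adipose tissue (eWAT) of wild type mice, which the study's methods give as male C57BL/6J animals bought at 4 weeks of age and kept on their diets for 20 weeks. Total RNA of the tissue, all its cell types together, was made into QuantSeq libraries, which read the 3′ ends of polyadenylated transcripts. The batch 1 controls on normal diet were replicates 1 to 4, the WD group, also of batch 1, was replicates 1 to 5, and the batch 2 controls on normal diet were replicates 5 to 9. No genotype, drug or operation distinguished these groups in the labels, which do not say what a batch is. WD against the batch 1 controls was the only comparison of the diets within a batch, and the batch 2 controls show how far samples of the same diet differed between batches. The libraries held 10278970 to 13712254 counts, and 3 counts, below which no level was read, stood for 0.219 to 0.292 CPM, the unit of counts scaled to library size. No molecular identifiers were mentioned, and these limits cover counting error only.

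Both extreme libraries of the batch 1 controls touched the results. In control replicate 1, 8 genes of the epididymis took 2.65% of the counts, against at most 0.00154% in any other library, and this library was the lowest of its group for 8 of the 10 members. In control replicate 4, only 7999 genes had a count, against 10903 to 13780 in the WD libraries and 12294 to 13501 in the batch 2 controls. That library had the highest level of its group for Mrc1, Mgl2 and Adgre1 and the lowest for Cbr2. Fabp4, Cfd and Lep of the adipocyte list were read in all 14 libraries, and the list summed to 6240.2 to 46644 CPM in the batch 1 controls, 25464 to 38811 CPM in WD and 53867 to 64602 CPM in the batch 2 controls, with the lowest sum in control replicate 1.

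The stretches in front of the start sites of 4 members are shown for a pair that rose in WD against the batch 2 controls (Mrc1 and Folr2) and a pair with negative log2 fold changes there that did not pass the test (Cd163 and F13a1). The 250 bases before the start are given 5′ to 3′ on the gene's own strand (RefSeq, GRCm38.p6). Capitals mark the ETS core GGAAGT, a motif of the macrophage factor PU.1, and the MAF recognition core TGCTGA, both searched on either strand.
Mrc1 (chr2:14229164-14229413, plus strand): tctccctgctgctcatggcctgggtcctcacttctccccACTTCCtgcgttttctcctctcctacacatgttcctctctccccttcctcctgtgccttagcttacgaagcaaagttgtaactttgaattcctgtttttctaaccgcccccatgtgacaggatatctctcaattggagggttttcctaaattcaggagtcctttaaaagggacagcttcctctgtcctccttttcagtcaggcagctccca
Folr2 (chr7:101857191-101857440, minus strand): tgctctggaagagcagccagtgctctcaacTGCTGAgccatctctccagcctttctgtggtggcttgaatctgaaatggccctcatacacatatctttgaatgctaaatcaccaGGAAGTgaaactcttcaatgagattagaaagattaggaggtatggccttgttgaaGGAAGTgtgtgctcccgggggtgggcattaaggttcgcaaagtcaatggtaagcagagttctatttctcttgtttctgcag
Cd163 (chr6:124304401-124304650, plus strand): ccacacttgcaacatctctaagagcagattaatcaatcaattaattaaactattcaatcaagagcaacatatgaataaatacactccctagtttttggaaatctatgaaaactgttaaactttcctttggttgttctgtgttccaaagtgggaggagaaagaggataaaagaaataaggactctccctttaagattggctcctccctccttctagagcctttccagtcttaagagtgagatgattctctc
F13a1 (chr13:37050245-37050494, minus strand): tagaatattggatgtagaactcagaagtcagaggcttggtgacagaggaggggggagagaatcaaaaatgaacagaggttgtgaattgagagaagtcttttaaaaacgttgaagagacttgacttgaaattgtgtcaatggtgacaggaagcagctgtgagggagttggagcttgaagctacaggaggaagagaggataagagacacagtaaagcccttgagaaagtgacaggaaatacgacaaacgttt
The ETS core lay in front of Mrc1 and in 2 places in front of Folr2, which also held the MAF recognition core, and neither string was found in these windows of Cd163 and F13a1. Of the members not shown, Timd4 (1 ETS core and 2 MAF recognition cores) and Mgl2 (1 ETS core) held a motif with log2 fold changes against the batch 2 controls of -1.83 and -0.01, neither called, and Cbr2 held none with -0.14. Whether a motif goes with the sign of the difference was not tested, and so few genes, most of them not called, cannot decide it. Promoter sequences of the same kind were at hand for 7 of the 10 members (not Lyve1, Adgre1 or Clec10a). The ETS core was in 4 of these 7, against 19.7% of 32851 mouse promoters of this length, and the MAF recognition core was in 2 of the 7, against 16.1%. The 2 motifs do not overlap in the windows shown. A match is a string of letters, not a measured binding site.

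Adgre1, a surface adhesion receptor of tissue macrophages (chr17:57358686-57483529, GRCm38), had the largest log2 fold change of the members in each comparison with WD. The batch 1 controls stood at 17, 67.5, 35.6 and 167 CPM and the WD libraries at 399.8, 225, 252, 309 and 197 CPM. Every WD library was above every batch 1 control, although control replicate 4 came near the lowest WD library. With means of 71.7 ± 66.8 CPM (SD, n = 4) in the controls and 277 ± 80.2 CPM (n = 5) in WD, the log2 fold change was 1.94 ± 0.55 (SE), or 3.85-fold, with an FDR of 0.478 in edgeR. The difference did not pass the threshold in this comparison. Of 17 alternatives 2 passed, the fit without control replicate 4 (log2 fold change 2.77, FDR 0.0301) and that without control replicates 1 and 4 (2.42, FDR 0.0117), and without control replicate 1 alone the values were 1.62 and 0.461. The batch 2 controls were closer together, at 56.1, 41.7, 32.7, 40.4 and 39.6 CPM, all below the WD libraries and within the range of the batch 1 controls. Against them Adgre1 rose 6.52-fold, a log2 fold change of 2.70 ± 0.24 with an FDR of 7.11e-06. Every WD library was of batch 1, so diet and batch cannot be told apart in that comparison. Against all 9 controls the log2 fold change was 2.30 ± 0.39 with an FDR of 0.00973, which became 0.163 with batch as a covariate and 0.455 with the replicate number as a block. In these bulk libraries, more cells of a type and more RNA per cell cannot be told apart, nor can fewer cells and less RNA. Adgre1 and Clec10a are also on the list of upregulated genes that the study chose on these samples, so their direction is not independent evidence.

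**Figure D1:**
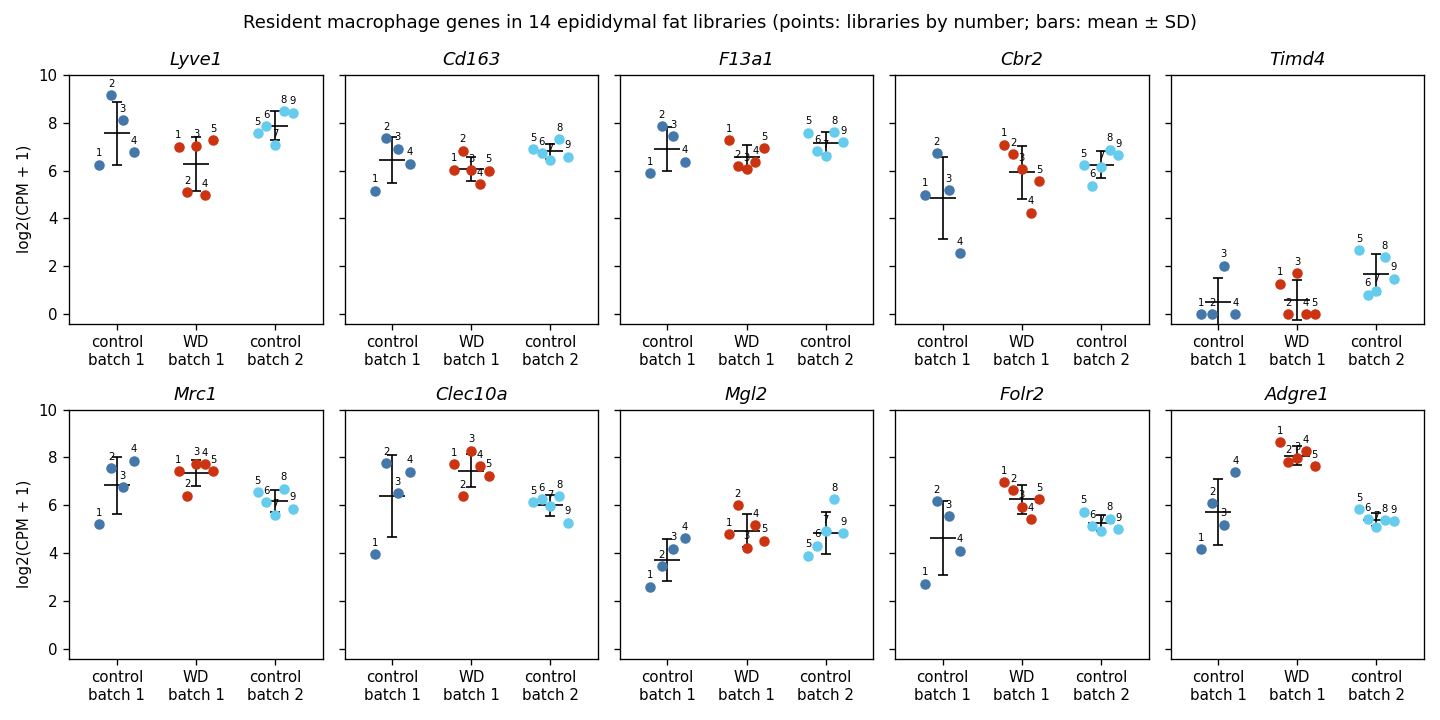
Level of each of the 10 genes as log2(CPM + 1) in the 4 batch 1 controls, the 5 WD libraries and the 5 batch 2 controls. Points are libraries marked with their replicate number, and the bars give the mean ± SD of each group. For Adgre1, the WD points lie above all 9 control points, whereas the groups overlap for Lyve1, Cd163, F13a1, Cbr2, Timd4, Mrc1, Mgl2 and Folr2; for Clec10a, WD clears the batch 2 controls but not the batch 1 controls.

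Mrc1, the mannose receptor CD206 that takes up glycoproteins (chr2:14229414-14332023), was read at 35.8, 185, 108 and 233 CPM in the batch 1 controls and 173, 83.9, 213, 208 and 172 CPM in WD. The 2 ranges overlapped on both sides, with control replicate 4 above every WD library, and WD replicate 2 stood apart below the other 4. The means, 140.5 ± 86.7 CPM and 170.0 ± 51.8 CPM, gave a log2 fold change of 0.27 ± 0.46 with an FDR of 1.00, and without control replicate 1 the value was -0.05. In batch 2 the controls were at 92.9, 69.8, 47, 102 and 57 CPM. WD replicates 1, 3, 4 and 5 were above all of these, and WD replicate 2 was among them. Mrc1 rose against the batch 2 controls by a log2 fold change of 1.19 ± 0.27 (2.29-fold, FDR 0.0131), a call kept when each library was left out in turn, with FDR from 9.30e-04 to 0.0431. Between the control groups of the same diet, the log2 fold change of batch 2 against batch 1 was -0.93 ± 0.45, with an FDR of 0.697, and without control replicate 1 it was -1.26 (FDR 0.322).

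Clec10a, the galactose-binding lectin MGL1 (chr11:70166623-70170836), gave 14.6, 217, 89.2 and 168 CPM in the batch 1 controls and 211, 82.3, 310.0, 197 and 149.8 CPM in WD. The lowest library was control replicate 1 and the highest WD replicate 3, and the other libraries were mixed. In batch 1 the log2 fold change was 0.63 ± 0.59 with an FDR of 1.00, and 0.26 without control replicate 1. In batch 2 the controls stood at 68.5, 75.3, 61.8, 81.8 and 37.8 CPM, below every WD library, though WD replicate 2 exceeded control replicate 8 by less than 1 CPM. Here Clec10a rose 2.89-fold, a log2 fold change of 1.53 ± 0.30 with an FDR of 0.00454, and the FDR with each library left out was 2.69e-04 to 0.0166. Between the control groups the log2 fold change, batch 2 against batch 1, was -0.92 ± 0.56 (FDR 0.813), and -1.29 without control replicate 1 (FDR 0.322).

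Mgl2, the neighbouring lectin MGL2 that is also found on dermal dendritic cells (chr11:70130357-70137542), had the lowest mean of the 3 lectin genes in each group. Its levels were 5.08, 10.1, 17.2 and 24 CPM in the batch 1 controls, 26.8, 63.2, 17.8, 34.7 and 22.1 CPM in WD and 13.8, 18.9, 29.3, 75.2 and 27.8 CPM in the batch 2 controls. WD replicates 1, 2 and 4 and control replicates 7, 8 and 9 were above every batch 1 control, and control replicate 8 and WD replicate 2 were the highest of all. The log2 fold change was 1.22 ± 0.63 against the batch 1 controls (edgeR, unadjusted p = 0.0756, FDR 1.00) and -0.01 ± 0.44 against the batch 2 controls (FDR 0.994). Batch 2 against batch 1 controls gave 1.22 ± 0.64 (FDR 0.741), close in size to the difference between the diets in batch 1. Clec10a and Mgl2 share 148 of the 75-base windows of their annotated transcripts, of 3331 in Clec10a and 2255 in Mgl2, the nearest at the end of a Clec10a transcript and 39 bases from the end of a Mgl2 transcript. Because reads with several alignments were counted, some reads may stand at both genes, and both levels are uncertain to that extent.

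Folr2, the folate receptor β (chr7:101839988-101857190), was read at 5.62, 71.6, 46.1 and 16.2 CPM in the batch 1 controls and 125, 97.4, 60.7, 42.3 and 76 CPM in WD. WD replicates 1, 2 and 5 were above every batch 1 control, and control replicate 1 was the lowest library, with 52 counts. The log2 fold change was 1.2 ± 0.61, 2.30-fold, with an unadjusted p of 0.0730 and an FDR of 1.00 in edgeR, and it was 0.45 without control replicates 1 and 4. The batch 2 controls, at 52.3, 33.9, 29.3, 42.7 and 31 CPM, lay within the batch 1 control range, and the 2 control groups differed by 0.11 ± 0.60 (FDR 0.995). Folr2 rose against the batch 2 controls by 1.07 ± 0.29 on the log2 scale (FDR 0.0327). That call was lost without any 1 of control replicates 6, 7, 8 and 9 and WD replicates 1 and 5, with FDR up to 0.114. The gene overlaps an antisense gene, Gm10602, and a pseudogene, Gm45319, and the use of strand in counting is not given in the sources used here.

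Lyve1, the hyaluronan receptor that anchors perivascular macrophages to the vessel coat and also marks lymphatic vessels (chr7:110850607-110862953), had negative log2 fold changes in all 3 comparisons with WD. The batch 1 controls were at 75.2, 565, 273 and 107 CPM and the WD libraries at 127, 33.3, 131, 30.4 and 153 CPM. WD replicates 2 and 4 were below every control, control replicates 2 and 3 were above every WD library, and control replicates 1 and 4 lay between the lower 2 and the upper 3 WD libraries. The means were 255 ± 224 CPM and 95 ± 58.6 CPM, and the log2 fold change was -1.43 ± 0.63 with an unadjusted p of 0.0409 and an FDR of 0.932 in edgeR. It was -0.70 without control replicate 2, where the unadjusted p was 0.261 in edgeR, and -2.14 without control replicates 1 and 4. The batch 2 controls were at 186, 229, 132, 359 and 340.5 CPM, and their mean of 249 ± 98.2 CPM differed from that of batch 1 by -0.04 ± 0.53 on the log2 scale (FDR 0.997). Against them, the log2 fold change was -1.40 ± 0.42 with an FDR of 0.0592. This did not pass the threshold. Of 14 alternatives 3 passed, with an FDR of 0.0216 without a filter on low counts, 0.00696 in DESeq2 and 0.0422 without WD replicate 5, and the FDR reached 0.143 in the others. Against all 9 controls, the difference was -1.42 ± 0.49 (unadjusted p = 0.00887 in edgeR, FDR 0.309), and of 21 alternatives only the fit without control replicates 1 and 4 passed (FDR 0.0223).

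Cd163, the receptor that clears haemoglobin bound to haptoglobin (chr6:124304651-124330527), stood at 34.9, 163, 119 and 77.3 CPM in the batch 1 controls, 64.6, 113, 63.5, 42.3 and 62.8 CPM in WD and 117, 105, 86.8, 159 and 94.8 CPM in the batch 2 controls. WD replicates 1, 3, 4 and 5 were below every batch 2 control, WD replicate 2 was among them, and the batch 1 controls spanned the whole WD range. The log2 fold change was -0.51 ± 0.43 against batch 1 (FDR 1.00) and -0.72 ± 0.25 against batch 2 (FDR 0.121). Without WD replicate 2 the latter was -0.96 with an FDR of 0.00995, and without control replicates 1 and 4 the former was -1.03 with an FDR of 0.289.

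F13a1, the A subunit of the transglutaminase factor XIII that cross-links fibrin and matrix (chr13:36867178-37050244), was at 58.8, 230.1, 173 and 81.6 CPM in the batch 1 controls, 153, 71.7, 66, 80.3 and 122 CPM in WD and 190.2, 112, 95.9, 193 and 144 CPM in the batch 2 controls. WD replicates 2, 3 and 4 were below every batch 2 control, and all groups overlapped. Its log2 fold changes were -0.47 ± 0.43 (FDR 1.00) against batch 1 and -0.58 ± 0.27 (FDR 0.273) against batch 2, and the former was -1.03 (FDR 0.273) without control replicates 1 and 4. F13a1 overlaps 2 antisense genes, Gm49144 and Gm30489.

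Cbr2, a carbonyl reductase of resident macrophages and lung epithelium (chr11:120729485-120732021), varied widely within groups. It was read at 30.8, 104, 35.3 and 4.86 CPM in the batch 1 controls, 134, 102, 65.7, 18 and 45.9 CPM in WD and 73.2, 40.4, 70.0, 116 and 98 CPM in the batch 2 controls. The WD libraries spanned most of the control range. The log2 fold change was 0.74 ± 0.72 against batch 1 (FDR 1.00) and -0.14 ± 0.41 against batch 2 (FDR 0.933). The former was 0.34 without control replicate 4 and 0.07 without control replicates 1 and 4. Of the 1323 windows of 75 bases in Cbr2 transcripts, 110 also occur in the gene Gm11771.

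Timd4, the phosphatidylserine receptor TIM-4 with which long-lived resident macrophages bind dying cells (chr11:46810799-46844333), was near the limit of these libraries. It had 0, 0, 37 and 0 counts in the batch 1 controls, 20, 0, 31, 0 and 0 in WD and 77, 8, 13, 55 and 18 in the batch 2 controls. It was thus read in 1 of 4 batch 1 controls, 2 of 5 WD libraries and 5 of 5 batch 2 controls. The gene did not pass the filter on low counts in batch 1, and a difference between the diets was not detectable there at this depth. Against the batch 2 controls the log2 fold change was -1.83 ± 1.58 (FDR 0.656), with 3 WD libraries at 0.

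Across the members, 9 of 10 were tested in batch 1, where no member and 0 of all 12157 genes (0%) had an FDR under 0.05 in edgeR. At an unadjusted p under 0.05 the table held 628 genes (5.17%), 3.35% higher and 1.82% lower in WD, and DESeq2 gave 114 genes with an FDR under 0.05. Of the members, Adgre1 was higher and Lyve1 lower by that unadjusted measure. Lyve1 lost this without any 1 of control replicates 2 and 3 and WD replicates 2 and 4. It also lost it with scaling by library totals alone, in limma-voom and with the replicate number as a block. Positive log2 fold changes were seen for 6 members and negative ones for 3, and the members' median was 0.63 against 0.03 over all genes tested. Adgre1 was the only member whose groups did not overlap, an arrangement with WD higher that 3.03% of all genes showed. Against the batch 2 controls all 10 were tested and 4 passed an FDR of 0.05, Adgre1, Clec10a, Mrc1 and Folr2, all higher, against 3.93% of 12070 genes called higher and 2.48% called lower. Clec10a and Adgre1 did not overlap there, against 4.99% of all genes with WD higher. The median over the 10 was -0.08, since the other 6 were negative. With all 9 controls as the reference only Adgre1 passed, against 0.435% of 12653 genes called higher, and its WD libraries lay above all 9 controls, as they did for 1.13% of genes. Between the control groups, no member passed an unadjusted p of 0.05 in edgeR, against 7.39% of 12106 genes, and 0 genes (0%) had an FDR under 0.05 in edgeR and 111 in DESeq2. The absence of members at that unadjusted p depended on each batch 1 control. Without control replicate 1, Mrc1, Clec10a and Adgre1 were lower in batch 2 at unadjusted p values of 0.00221, 0.00201 and 0.0251 in edgeR. Without control replicates 1 and 4, those of Mrc1 and Clec10a were 0.00699 and 0.00257. Higher in batch 2 were Cbr2 without control replicate 2 (unadjusted p = 0.0139 in edgeR), Timd4 without control replicate 3 (0.00680) and Mgl2 without control replicate 4 (0.0236). The 3 comparisons with WD share their WD libraries, so they are not independent of each other.

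**Figure D2:**
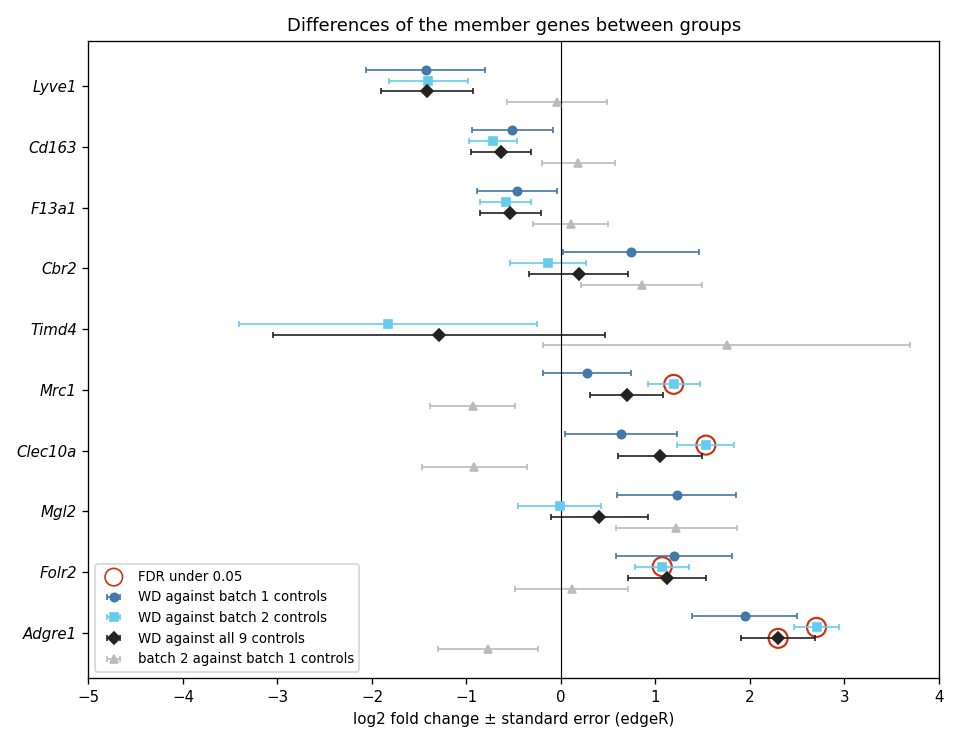
Log2 fold change ± standard error (edgeR) of each gene in 4 comparisons, with red rings at an FDR under 0.05. Lyve1, Cd163 and F13a1 lie left of 0 in all 3 comparisons with WD, Mrc1, Clec10a, Folr2 and Adgre1 lie right of 0, and Lyve1 (-0.04), Mrc1, Clec10a and Adgre1 lie left of 0 where batch 2 controls are set against batch 1 controls.

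The 10 genes were also set against one another within each library, on the CPM scale. QuantSeq gives tags near the 3′ end, so that a level does not grow with transcript length and no length correction was made. Together the 10 genes reached 1086 ± 216 CPM (n = 5) in WD, 918 ± 546 CPM (n = 4) in the batch 1 controls and 843 ± 218 CPM (n = 5) in those of batch 2. The sums overlapped, and their makeup differed. Lyve1 made up 26.2% ± 9.87 of the sum in the batch 1 controls, 8.47% ± 5.09 in WD and 29.1% ± 7.16 in the batch 2 controls. Adgre1 made up 8.31% ± 7.18, 25.4% ± 5.05 and 5.17% ± 1.2 in the same order. Adgre1 was the highest of the 10 in 4 of 5 WD libraries, with Clec10a the highest in WD replicate 3. Lyve1 was the highest in 7 of 9 controls, with Mrc1 in control replicate 4 and F13a1 in control replicate 5. Control replicate 4 had a Lyve1 share of 12.2% and an Adgre1 share of 19%, within 1 percentage point of the WD range of 19.7% to 32.1% for Adgre1.

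**Figure D3:**
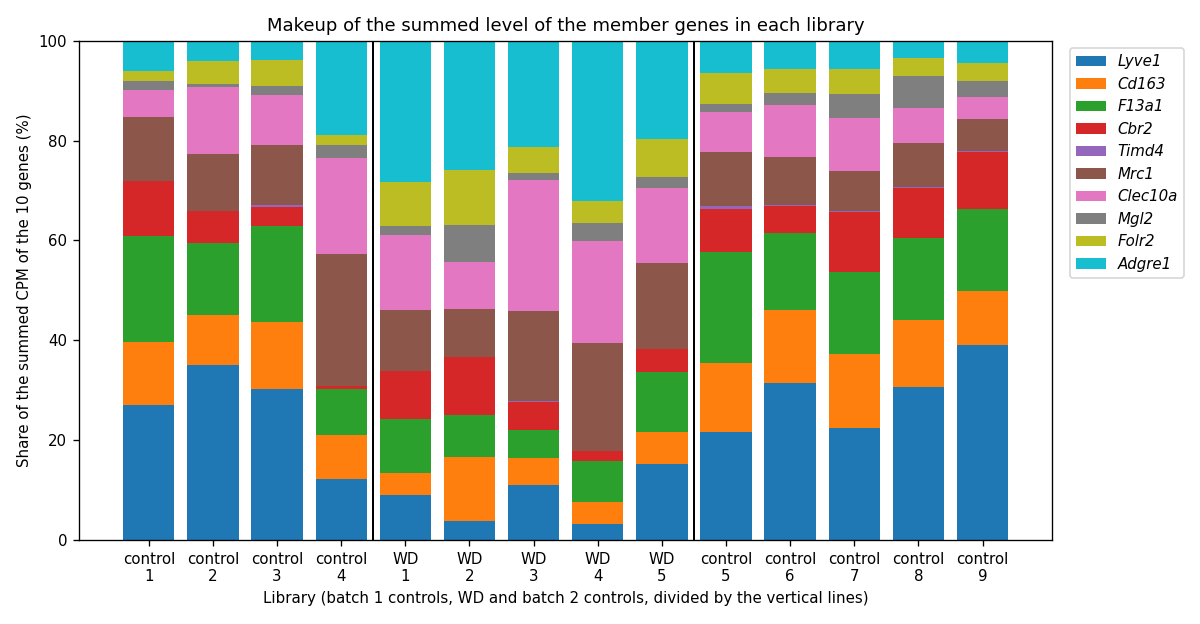
Share in percent of each gene in the summed CPM of the 10 genes, one bar for each of the 14 libraries. Adgre1 takes 19.7% to 32.1% in the WD bars, and Lyve1 takes 3.16% to 15.3% there against 12.2% to 39.0% in the control bars.

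Each member was then expressed relative to Adgre1, as the difference of the 2 log2(CPM + 1) levels in a library, a description for which no test was made. Mrc1 differed from Adgre1 by -1.41 to -0.20 in WD, 0.48 to 1.58 in the batch 1 controls and 0.51 to 1.32 in those of batch 2, so Mrc1 was above Adgre1 in all 9 controls and below it in all 5 WD libraries. Mrc1 was the only 1 of 9 members whose difference from Adgre1 did not overlap between WD and the batch 1 controls, an arrangement that 22.7% of all genes shared (20.7% with all 9 controls), and control replicate 4 decided this count. Without it, 6 of 9 did not overlap, against 70.3% of all genes. Against the batch 2 controls 7 of 9 were lower relative to Adgre1 without overlap, against 78.7% of all genes. Both counts include Timd4, whose difference is only the Adgre1 level with a minus sign in the 3 WD libraries where it had 0 counts. The members' shares were thus close to or below those of the whole table. Lyve1 differed from Adgre1 by -3.30 to -0.36 in WD, -0.63 to 3.05 in the batch 1 controls and 1.71 to 3.12 in those of batch 2, and control replicate 4 was the only control at or below a WD library. Clec10a and Mgl2 overlapped in both comparisons.

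Likeness between genes was described by the SD, over the 14 libraries, of the difference of their log2(CPM + 1) levels, where a small SD means a constant ratio. Mrc1 and Clec10a had an SD of 0.46, and Mrc1 was the closest to Clec10a of 7979 genes with a mean of at least 10 CPM, while Mrc1 itself was closest to Ms4a6d (0.32) and Cyfip1 (0.40), with Clec10a at rank 9. Cd163 and F13a1 had an SD of 0.48, where F13a1 held rank 64 for Cd163 and Cd163 rank 40 for F13a1. The genes closest to Cd163 were Tmem134 (0.32) and Pxmp4 (0.34), and those closest to F13a1 were Extl3 (0.38) and Nr3c1 (0.38). Adgre1 kept the most constant ratio to C3ar1 (0.45), the receptor of the complement fragment C3a, and Lipa (0.45), the lysosomal acid lipase, and its closest member was Clec10a at 0.89. Lyve1 was less constant with any gene, the closest being Eif2b1 (0.63) and Pdzd7 (0.64), and its closest member was F13a1 at 0.81. The libraries share diet, batch and depth, so these values carry no test.

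Other macrophage genes showed how the members sat within their cell class. Of the 18 other genes listed for resident macrophages, 3 were higher and 1 lower in WD at an unadjusted p under 0.05 in batch 1, with a median log2 fold change of 0.16. Among the higher ones were Maf, a transcription factor of macrophages, and Cd5l, a secreted scavenger receptor, and the lower one was Vsig4, a complement receptor picked out after its value was seen, with -1.91 (FDR 0.877) in batch 1 and 0.20 (FDR 0.961) against the batch 2 controls. Maf gave a log2 fold change of 1.08 (FDR 0.849). Cd5l had 0.888 to 6.25 CPM in WD and at most 0.0706 CPM, under the 3-count limit, in any control, and its fitted fold is not given. Against the batch 2 controls Cd5l passed an FDR of 0.05 (FDR 0.00930), and Fcna, a ficolin of resident macrophages also picked out after its value was seen, fell from 64 ± 11 CPM to 18.6 ± 8.36 CPM (FDR 0.00117). In batch 1 Fcna gave -1.35 ± 1.06 and was not called, with controls at 0 to 83.9 CPM and WD at 13.1 to 33.2 CPM. Sepp1, the selenium carrier and the most abundant gene of this list, gave 0.68 (FDR 0.135) against the batch 2 controls and 0.32 ± 0.49 in batch 1.

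The general macrophage genes all had positive log2 fold changes in the comparisons of WD with either control group. Of 13 tested, 11 were higher in WD at an unadjusted p under 0.05 in batch 1 and none lower, against 3.35% of all genes higher, and the median was 1.47. Against the batch 2 controls 12 of 13 passed an FDR of 0.05, all higher, against 3.93% of all genes called higher, and the median was 2.19. Tyrobp, a signalling adaptor, and C1qb, a chain of complement C1q, rose there by 2.32 (FDR 9.57e-05) and 2.05 (FDR 2.25e-04). In WD against the batch 1 controls they gave 1.95 and 1.42, neither called (FDR 0.434 each). Of the 12 lipid-associated macrophage genes, 3 were higher in batch 1 at an unadjusted p under 0.05, against 3.35% of all genes. Against the batch 2 controls 10 were called higher, against 3.93% of all genes. The medians in these 2 comparisons were 1.29 and 2.93. Between the control groups, where no gene of either list passed an FDR of 0.05 in edgeR, 9 of 11 lipid-associated genes tested had negative log2 fold changes in batch 2 against batch 1 (median -1.53), 5 of them at an unadjusted p under 0.05. The general macrophage genes were negative there in 12 of 12 (median -0.44), 2 at that p. Itgax, the integrin CD11c, gave log2 fold changes of 2.54 (FDR 0.434) and 2.98 (FDR 0.00354), and Lgals3, galectin-3, gave 1.74 (FDR 0.530) and 2.63 (FDR 2.22e-04). Lpl, made mostly by adipocytes, gave 0.55 ± 0.61 against the batch 1 controls and -0.49 (FDR 0.104) against the batch 2 controls, called in neither. Retnla, an IL-4 induced secreted protein, was at 270.4 ± 284 CPM in the batch 1 controls, 242 ± 87.6 CPM in WD and 788 ± 149 CPM in the batch 2 controls. It fell against the batch 2 controls, with a log2 fold change of -1.71 (FDR 3.10e-04) and gave -0.16 against the batch 1 controls (FDR 1.00). Between the control groups, Retnla was higher in batch 2 by 1.54 (FDR 0.596). It did not stand for the IL-4 responsive list. Of 5 genes of that list tested against the batch 2 controls, 3 had positive and 2 negative log2 fold changes, and only Retnla was called.

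**Figure D4:**
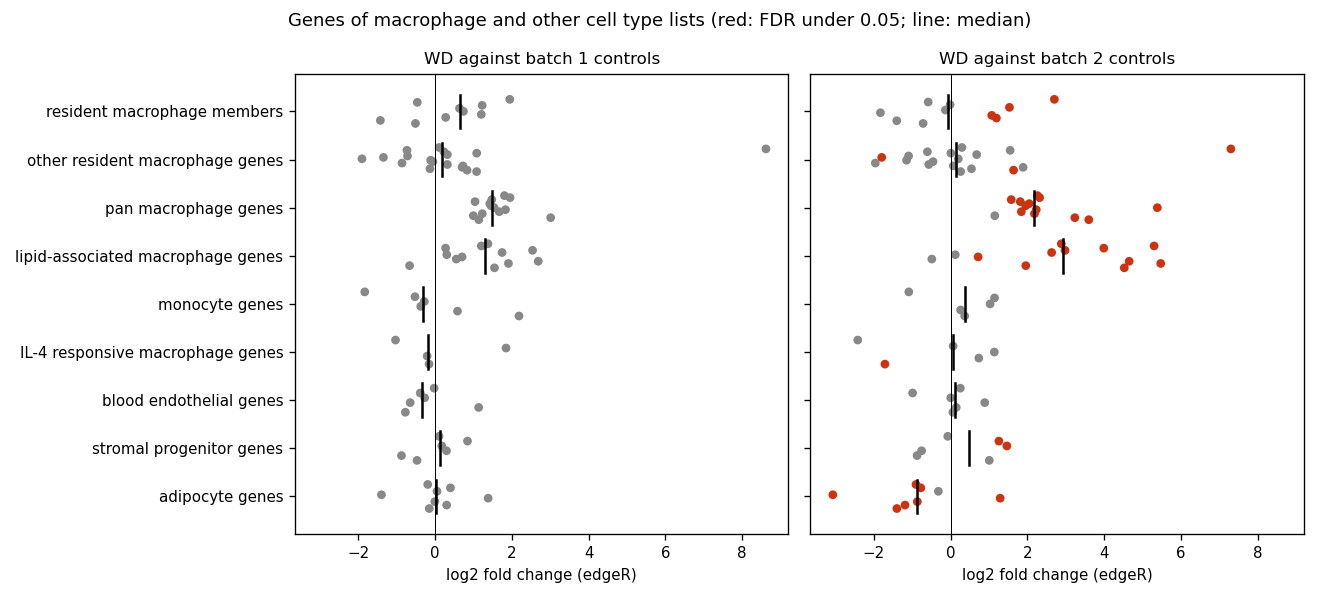
Log2 fold change (edgeR) of the tested genes of 9 marker lists in WD against the batch 1 controls and against the batch 2 controls, on a shared axis. Each point is a gene, red at an FDR under 0.05, and the black line is the median of the list. The members straddle 0 in both panels, with medians of 0.63 and -0.08, while the general macrophage genes lie right of 0 in both.

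Cell types other than macrophages carry some members, and their markers were read in the same libraries. Lymphatic endothelium carries Lyve1. Its defining gene Prox1 had 0 counts in all 14 libraries, and the 5 genes of its list found in the table summed to 1.16 to 126 CPM in the batch 1 controls, 19.1 to 62.6 CPM in WD and 17.4 to 65.8 CPM in the batch 2 controls, on average mostly from Pdpn, which stromal cells also express. No gene of this list had an FDR under 0.05 in the 4 edgeR comparisons, and 1 had an unadjusted p under 0.05, lower against all 9 controls. Some dendritic cells carry Clec10a and Mgl2, and their 8 genes summed to at most 18.7 CPM in any library. Platelets and monocytes carry F13a1. The 5 platelet genes summed to at most 17.1 CPM, and the 6 monocyte genes to 72.9 to 123 CPM in the batch 1 controls, 62.6 to 126 CPM in WD and 51.3 to 121 CPM in the batch 2 controls. None of the monocyte genes, among them Ccr2 and Ly6c2, passed an FDR of 0.05 in edgeR, and 1 was at an unadjusted p under 0.05 against the batch 2 controls, Vcan at 1.14 (FDR 0.115). Vcan was also lower in the batch 2 than in the batch 1 controls, at -1.69 (unadjusted p = 0.00524 in edgeR). In WD against the batch 1 controls it gave -0.53 ± 0.48. Against the batch 2 controls, 6 of the 8 adipocyte genes were called lower and 1, Lep, higher. Of all genes, 2.48% were called lower there and 3.93% higher. Between the control groups of the same diet, all 8 had positive log2 fold changes in batch 2 (median 1.00), none called. In WD against the batch 1 controls 4 were positive and 4 negative, none called, with Lep at 1.38 (FDR 0.593) and Cfd at -1.40 (FDR 0.950). The part of adipocyte, monocyte or lymphatic RNA in the members' differences was not tested.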

How the data were processed

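QuantSeq 3′ mRNA libraries of 14 eWAT samples were analysed, grouped by the diet and batch in the sample labels. The authors used Bowtie2 to align single-end 75-base reads and Bedtools to count them, multiple alignments included, and the deposited counts are unnormalized. The submitters' processing notes name mm10, which is GRCm38. The deposited log2 values are the authors' TMM-normalized CPM with 1 added, and CPM computed here differed from them by at most 0.0507 on the log2 scale. Gene positions are those of the deposited table's gene annotation. Promoter sequences are RefSeq's on GRCm38.p6, taken where their start site matched that annotation, and overlaps are from GENCODE.

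All genes were fitted with edgeR 4.0.16 (filterByExpr, TMM, quasi-likelihood test, Benjamini-Hochberg FDR, threshold 0.05), in R 4.3.3, separately for each comparison. The labels number the samples without naming animals, so p-values measure the spread between these samples. limma 3.58.1 and DESeq2 1.42.0 served as alternatives, beside other scalings and filters, batch terms and libraries left out. The fits were tested on simulated data. CPM are means ± SD over libraries. Values were computed with Python 3.11.15 and pandas 2.3.3 and drawn with matplotlib 3.10.9. Replicate numbers were checked for pairing between control and WD libraries of the same number, and correlations of deviations from the group means were -0.02 to 0.08 in 4 pairs, so the numbers were not taken as pairs.

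The members and lists were chosen with earlier results of these data known, so no adjustment over the members alone was made. Genes outside the members were mostly named by rule: from each list at most 2 with the lowest unadjusted p in batch 1, 2 against all 9 controls and the most abundant one, and for each member the 2 genes of most constant ratio. Among the exceptions were Vsig4 and Fcna, named after their values were seen, and Prox1. Selenop was listed as Sepp1, and Ccl21a was not matched. No pair of libraries agreed within sampling noise. One gene of the marker lists is not reported here.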

Additional observations from a re-analysis of the deposited data

Results flagged for a closer look

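In 30 groups of 4 or 5 libraries, one for each gene and group, the highest or lowest library was compared with the others by Dixon's ratio, and 2 stood apart, where chance gives about 1.5. Mrc1 in WD replicate 2 was at 6.41 on the log2(CPM + 1) scale (782 counts), against 7.44 to 7.74 in the other 4 WD libraries. Without that library Mrc1 was still called higher in WD than in the batch 2 controls. Timd4 in control replicate 3 was at 2.03 (37 counts), and the other 3 batch 1 controls had 0 counts.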

How the results depend on the processing

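The number of genes with an FDR under 0.05 depended on single libraries and on the tool. In WD against batch 1 controls it was 0 in edgeR, 114 in DESeq2, 0 to 48 with each library left out (48 without control replicate 4) and 108 without control replicates 1 and 4. In batch 2 against batch 1 controls it was 0 in edgeR, 111 in DESeq2, 0 to 2 with each library left out and 28 without both. In WD against batch 2 controls it was 773, and 565 to 977 with each library left out. In WD against all 9 controls it was 67, 225 in DESeq2, 1 with batch as a covariate, 28 to 289 with each library left out (190 without control replicate 1, 289 without control replicate 4, 40 without control replicate 5, and 29, 42, 28 and 33 without WD replicates 1 to 4) and 619 without both. With the replicate number as a block it was 0 in WD against batch 1 controls and 0 in WD against all 9 controls, where the call of Adgre1 was lost; 2 controls of 4 correlated best with the WD library of their own number. No paired analysis was possible because the groups share fewer than 2 replicate numbers in both comparisons with the batch 2 controls.

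The sign turned in the following cases. Without both of control replicates 1 and 4, the batch 2 controls were below the batch 1 controls for Cd163 (-0.32), Folr2 (-0.63) and F13a1 (-0.46), and Cbr2 was -0.0859 in WD against all 9 controls. Mgl2 in WD against batch 2 controls was 0.00817 with upper-quartile factors and 0.0151 in DESeq2. With each library left out in turn, values ran from -0.0452 to 0.61 for Mrc1 in WD against batch 1 controls, from -0.38 to 0.54 for Mgl2 and -0.48 to 0.11 for Cbr2 in WD against batch 2 controls, and from -0.16 to 0.43 for Cbr2 against all 9 controls. Between the control groups they ran from -0.0946 to 0.55 for Cd163, -0.24 to 0.75 for Folr2, -0.14 to 0.50 for F13a1, -0.34 to 0.72 for Lyve1 and -1.11 to 0.0798 for Adgre1. The counts relative to Adgre1 without control replicate 4 were chosen after seeing the data. The cause of these changes was not tested.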

Other observations

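Lymphocyte genes stood out in 1 WD library. The 8 T and B lymphocyte genes summed to 82.9 CPM in WD replicate 3, against 3.83 to 9.23 CPM in the other 4 WD libraries and at most 7.13 CPM in any control. Ms4a1, which encodes the B cell antigen CD20, was at 1.00 to 43.9 CPM in WD and 0 to 2.33 CPM in the controls (FDR 0.340 against all 9 controls in edgeR), and Cd79a, a B cell receptor chain, was at 0 to 11 CPM and 0 to 1.17 CPM (FDR 0.597). The same library had the highest Clec10a and Mrc1 levels of the WD group.

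Of 6 stromal progenitor genes, 2 passed an FDR of 0.05 against the batch 2 controls. Col1a1 and Col3a1, the chains of fibrillar collagens I and III, rose by 1.47 (FDR 0.00305) and 1.26 (FDR 0.00461), while in batch 1 they gave 0.17 and 0.84 (FDR 1.00 each), with control replicate 4 at the highest summed level of the list, 1257 CPM. Between the control groups of the same diet, batch 2 against batch 1, they gave -1.31 (FDR 0.609) and -0.43 (FDR 0.964). None of the 6 blood endothelial genes, Pecam1 and Cdh5 included, passed that threshold in the 4 comparisons in edgeR, and 1 was at an unadjusted p under 0.05 between the control groups. The mesothelial list of 5 genes, with Krt19 and Lrrn4, summed to 0.0726 CPM in control replicate 4 and to 13.3 to 108 CPM in the other batch 1 controls, and none of its genes was called in edgeR.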
